A study of Mus musculus with 4 samples.

Results

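The 10 genes described here encode proteins that neutrophils pack into granules or, for calprotectin, hold in the cytosol. They are Mpo, Elane, Prtn3, Ctsg, Ltf, Camp, Ngp, Lcn2, S100a8 and S100a9, chosen by name, and all 10 were found among the 55228 genes of the deposited count table. The table covers total RNA of rib cartilage cells from C57BL/6 mouse embryos at stage E17.5. 2 libraries came from Trim28 knockout (Trim28 KO) embryos and 2 from wild-type (WT) embryos. The labels give neither the knockout allele, nor a promoter or Cre that limits it to a cell type, nor whether replicate libraries are of different embryos. P-values thus rest on the spread between these libraries, and that spread may be technical. TRIM28 is a corepressor that KRAB zinc finger proteins bring to DNA.

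Neutrophils mature in haematopoietic tissue through stages that make granules in order. Promyelocytes fill azurophil (primary) granules with myeloperoxidase and serine proteases, later stages fill specific (secondary) granules with lactoferrin, cathelicidin and lipocalin, and calprotectin collects in the cytosol as the cell matures. The transcripts of the early granule proteins are largely gone from mature cells. Cartilage itself has no blood vessels, but developing bone and the marrow space beside it hold blood cells.

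Total counts ran from 18616896 to 20082123 per library, and 1 read corresponded to 0.0502 to 0.0531 CPM, the count scaled to library size with TMM (trimmed mean of M) factors. Trim28 stood at 51.1 and 54.5 CPM in Trim28 KO, against 225 and 186 CPM in WT, and fell (log2 fold change of -1.96 ± 0.20). The error is the SE with 2 libraries in each genotype, and edgeR's quasi-likelihood test gave an adjusted p = 2.28e-07 (Benjamini-Hochberg over all 16639 genes tested, called under 0.05). All 12 listed chondrocyte markers were present, with summed levels of 93032 and 117958 CPM in Trim28 KO, against 128028 and 97492 CPM in WT. The 10 granule genes were rare beside them: together they had 61 and 46 reads in Trim28 KO, against 91 and 553 reads in WT. WT 2 therefore stood apart from the other 3 libraries, and it was the highest library for all 10 genes. Of the 6683 genes with a summed count in the range of the 10 (13 to 223 reads), WT 2 was the highest library for 34%.

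**Figure D1:**
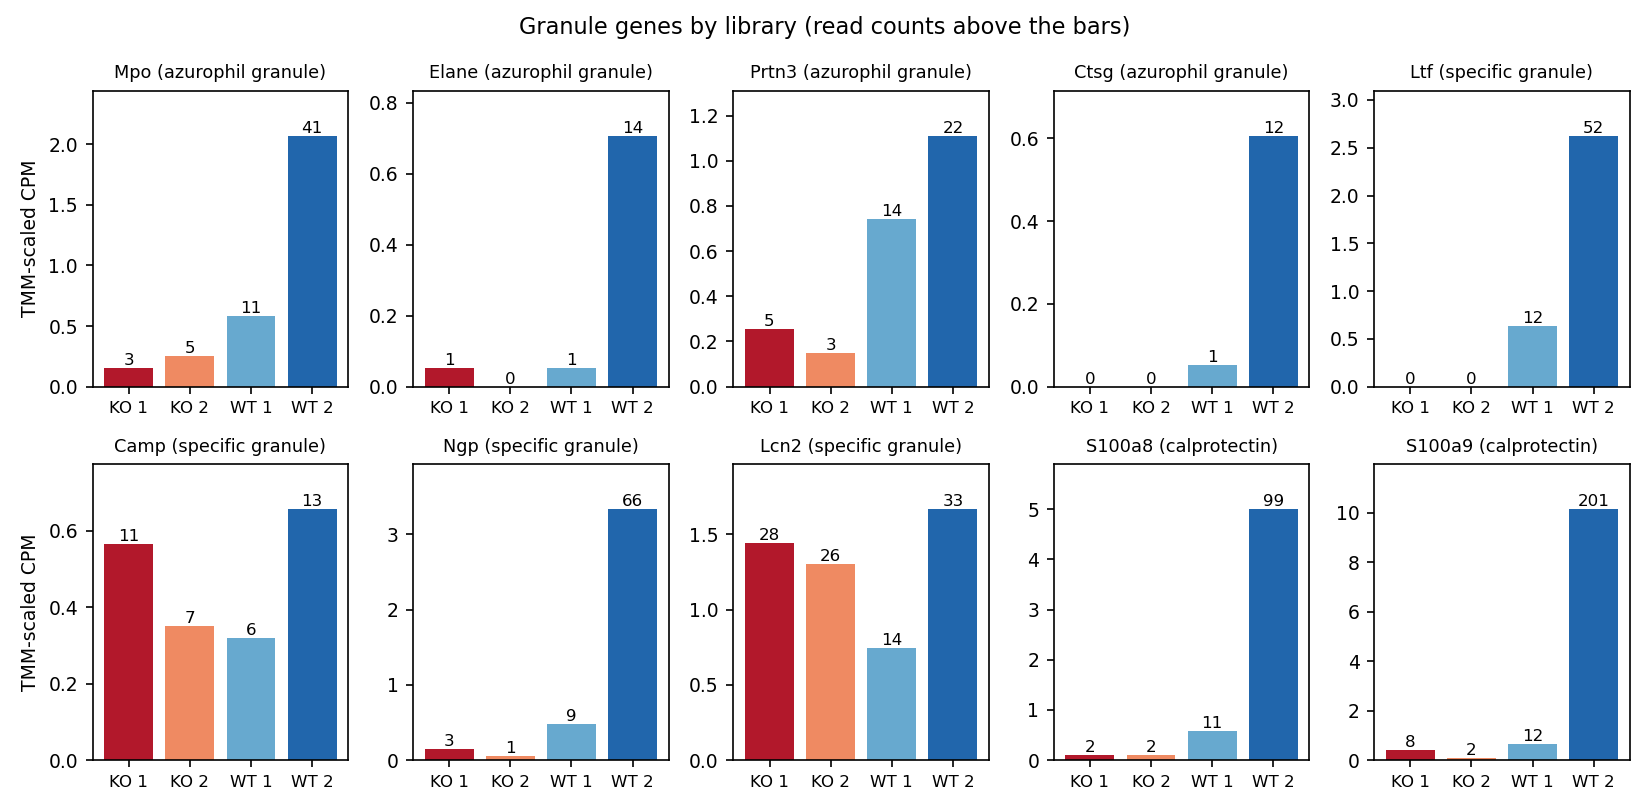
TMM-scaled CPM of each granule gene (y axis, linear, a scale of its own for each gene) in each library (x axis), with the read count above each bar and no error bars, since each bar is 1 library. WT 2 is the highest bar in all 10 panels, and Ltf and Ctsg have 0 reads in both Trim28 KO libraries.

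The azurophil granule genes were low in Trim28 KO. Summed over Mpo, Elane, Prtn3 and Ctsg they reached 0.463 and 0.401 CPM in Trim28 KO, against 1.43 and 4.50 CPM in WT. In bulk RNA, fewer cells of a type and less RNA per cell cannot be told apart. Mpo, which encodes the peroxidase that makes hypochlorous acid, had 3 and 5 reads in Trim28 KO, against 11 and 41 reads in WT (0.154 and 0.251 CPM against 0.584 and 2.07 CPM). The genotypes did not overlap, and WT 2 was more than 3 times as high as WT 1 (ratio of 3.55, 95% counting interval of 1.79 to 7.65). Mpo fell in Trim28 KO (log2 fold change of -2.68 ± 0.67, SE, edgeR adjusted p = 0.00821). Prtn3, which encodes the serine protease proteinase 3, had 5 and 3 reads in Trim28 KO, against 14 and 22 reads in WT. It was the member with the closest WT libraries (ratio of WT 2 to WT 1 of 1.49, 0.731 to 3.16), the genotypes did not overlap, and it fell (log2 fold change of -2.16 ± 0.62, adjusted p = 0.0164). DESeq2 did not call Prtn3 (adjusted p = 0.136).

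Elane and Ctsg, the neutrophil elastase and cathepsin G genes, were too rare to be tested. Elane had 1 read and 0 reads in Trim28 KO, against 1 and 14 reads in WT, so the genotypes were separated only by the scaling of 1 read in Trim28 KO 1 and 1 read in WT 1. Its pooled reads were 15.3-fold lower in Trim28 KO, with a 95% counting interval of 2.35-fold to 643-fold. Ctsg had 0 reads in both Trim28 KO libraries, against 1 and 12 reads in WT. Set against a floor of 3 reads over the pooled Trim28 KO libraries, with the WT reads taken as exact, Ctsg was 4.41-fold lower. Nearly all reads of both genes lay in WT 2, 87.5% for Elane and 92.3% for Ctsg. Counting intervals cover counting error only, and floors leave out the counting error of WT. A fold set against a floor depends on the chosen 3 reads and is not an estimate of the fold itself. Neither covers the spread between libraries.

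The specific granule genes split. Ltf and Ngp were low or absent in Trim28 KO, whereas the genotypes overlapped for Camp and Lcn2. Ltf encodes lactoferrin, the iron-binding protein of specific granules. It had 0 reads in both Trim28 KO libraries, against 12 and 52 reads in WT (0.637 and 2.63 CPM). Ltf fell (edgeR adjusted p = 0.00787). Set against the same floor of 3 reads, it was 21.7-fold lower by pooled reads and 8.36-fold lower against WT 1 alone. Ngp, which encodes a granule protein of the cathelicidin family, had 3 reads and 1 read in Trim28 KO, against 9 and 66 reads in WT. It was not tested, because its 9 reads in WT 1 were too few for the filter, which asked for about 10 reads in 2 libraries. The genotypes did not overlap, and pooled reads of Ngp were 19.1-fold lower in Trim28 KO (95% counting interval of 7.16-fold to 71.9-fold).

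Camp, the gene of the antimicrobial precursor cathelicidin, had 11 and 7 reads in Trim28 KO, against 6 and 13 reads in WT. The genotypes overlapped, and Camp was not called (log2 fold change of -0.10 ± 0.60, adjusted p = 0.934). Lcn2 encodes lipocalin 2, which binds bacterial siderophores and is also made by cells other than neutrophils, osteoblasts and chondrocytes among them. It had 28 and 26 reads in Trim28 KO, against 14 and 33 reads in WT, with the 2 Trim28 KO libraries between WT 1 and WT 2. Lcn2 was not called either (log2 fold change of 0.18 ± 0.45, adjusted p = 0.831). Pooled reads gave ratios of Trim28 KO to WT of 0.930 for Camp (95% counting interval of 0.460 to 1.87) and 1.13 for Lcn2 (0.749 to 1.70). These intervals hold changes of up to about 2-fold for Camp in either direction, so this depth does not show that the levels were equal.

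Calprotectin is the dimer of S100A8 and S100A9, calcium-binding proteins that also sequester zinc and manganese, and monocytes make it too. S100a8 had 2 and 2 reads in Trim28 KO, against 11 and 99 reads in WT (0.103 and 0.100 CPM against 0.584 and 5.0 CPM). S100a9 had 8 and 2 reads in Trim28 KO, against 12 and 201 reads in WT (0.412 and 0.100 CPM against 0.637 and 10.2 CPM). The genotypes did not overlap in either gene, but the gap between the WT libraries was wider than the gap between WT 1 and Trim28 KO. S100a9 was 15.9 times as high in WT 2 as in WT 1 (95% counting interval of 8.92 to 31.3) and S100a8 8.56 times (4.58 to 17.7). The log2 fold changes were large and imprecise, -4.70 ± 1.57 for S100a8 and -4.38 ± 2.26 for S100a9, and edgeR called neither (adjusted p = 0.154 and 0.381). S100a8 was called by DESeq2 (adjusted p = 1.42e-04) and by limma-voom (adjusted p = 0.0363), S100a9 by neither (0.0836 and 0.0999).

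The genes lie on 6 chromosomes in build GRCm38 (mm10), all as protein-coding genes, and several are neighbours. S100a8 (chromosome 3, 90668978 to 90670035, plus strand) and S100a9 (chromosome 3, 90692632 to 90695721, minus strand) are 22.6 kb apart. Prtn3 (chromosome 10, 79874476 to 79883174) and Elane (79886247 to 79888215) lie 3072 bases apart on the plus strand. Camp (109847379 to 109849617, minus strand), Ngp (110419747 to 110423012, plus strand) and Ltf (111019271 to 111042767, plus strand) lie on chromosome 9 with gaps of 570.1 kb and 596.3 kb. The others are Lcn2 on chromosome 2 (32384633 to 32388252, minus strand), Mpo on chromosome 11 (87793581 to 87804413, plus strand) and Ctsg on chromosome 14 (56099881 to 56102574, minus strand). Counting did not use strand, and 159 exonic bases of Prtn3 (9.18%) are shared with Plppr3 on the other strand, which had 167 and 136 reads in Trim28 KO, against 301 and 247 reads in WT. Without a strand or multi-overlap option, fragments that match both genes alike in the shared bases are counted for neither. Mpo shares 14.95% of its exonic bases with Gm11505, which had 0 reads in all 4 libraries. How many reads Prtn3 and Mpo lost in the shared bases was not tested.

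Promoter sequences (250 bases before to 50 after the start, RefSeq, GRCm38.p6) matched all 10 genes. They were searched on both strands for letters known to be bound by C/EBP factors (TTGCNNAA), PU.1 (AGAGGAAG) and GFI1 (AAATCA), which act in granulocyte development. TTGCNNAA was found in 4 of the 10 promoters (Ltf, Ngp, S100a9 and Lcn2) and in 10.8% of all 32817 promoters. AGAGGAAG was found in Mpo and Ctsg and in 4.55% of all promoters, and AAATCA in Ltf and in 14% of all promoters. A match is a description of the letters and not a bound site. The promoters below show the matches in capitals for 3 genes that were lower or absent in Trim28 KO (Ltf, chr9:111019042-111019341, plus strand, Ngp, chr9:110419558-110419857, plus strand, and Mpo, chr11:87793534-87793833, plus strand), for the calprotectin gene S100a9 (chr3:90695672-90695971, minus strand) and for Lcn2 (chr2:32387690-32387989, minus strand), which was not called. No matches overlap in them.
Ltf: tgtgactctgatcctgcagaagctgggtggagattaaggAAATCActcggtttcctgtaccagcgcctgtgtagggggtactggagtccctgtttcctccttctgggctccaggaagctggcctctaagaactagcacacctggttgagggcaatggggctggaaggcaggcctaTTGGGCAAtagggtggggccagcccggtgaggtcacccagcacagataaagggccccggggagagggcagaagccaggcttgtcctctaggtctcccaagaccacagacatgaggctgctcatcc
Ngp: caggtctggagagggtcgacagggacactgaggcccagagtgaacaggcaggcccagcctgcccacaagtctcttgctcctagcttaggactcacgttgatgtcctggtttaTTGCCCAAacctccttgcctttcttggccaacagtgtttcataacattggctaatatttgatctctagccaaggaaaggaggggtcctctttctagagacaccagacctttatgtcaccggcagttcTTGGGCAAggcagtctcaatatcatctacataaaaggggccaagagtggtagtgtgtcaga
Mpo: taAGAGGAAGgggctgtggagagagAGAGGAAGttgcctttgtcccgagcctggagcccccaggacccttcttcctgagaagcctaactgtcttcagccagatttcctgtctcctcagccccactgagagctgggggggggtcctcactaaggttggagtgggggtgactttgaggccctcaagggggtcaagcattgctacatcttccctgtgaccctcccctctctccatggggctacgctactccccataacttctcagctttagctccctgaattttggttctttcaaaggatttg
S100a9: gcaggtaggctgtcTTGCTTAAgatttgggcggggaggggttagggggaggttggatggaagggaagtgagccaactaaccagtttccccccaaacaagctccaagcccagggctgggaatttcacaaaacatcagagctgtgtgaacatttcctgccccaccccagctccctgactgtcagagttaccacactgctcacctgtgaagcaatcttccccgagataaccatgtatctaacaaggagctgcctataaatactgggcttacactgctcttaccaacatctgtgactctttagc
Lcn2: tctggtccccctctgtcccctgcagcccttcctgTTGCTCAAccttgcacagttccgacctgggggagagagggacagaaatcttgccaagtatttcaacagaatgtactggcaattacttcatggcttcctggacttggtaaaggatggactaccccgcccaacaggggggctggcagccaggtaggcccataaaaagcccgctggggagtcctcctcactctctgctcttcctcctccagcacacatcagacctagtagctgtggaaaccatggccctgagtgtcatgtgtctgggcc
TTGCNNAA matches thus stand both in Ltf, with 0 reads in Trim28 KO, and in Lcn2, with 28 and 26 reads in Trim28 KO.

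In all, 3 of the 7 tested granule genes were lower in Trim28 KO (Mpo, Prtn3 and Ltf), 0 were higher and 4 were not called. Of all tested genes 8.77% were lower and 8.64% higher. No member was higher at an unadjusted p under 0.05 by edgeR, DESeq2 or limma-voom. The median log2 fold change of the 7 was -2.68, also with Ltf at its floor value, beside -0.02 over all tested genes. 5 of the 7 passed the filter on low counts only through the WT libraries, so they had to be higher in WT to be tested, and neither this count nor this median supports a direction or describes all 10 genes. Over all 10, the genotypes did not overlap in 8, all lower in Trim28 KO, and overlapped in Camp and Lcn2. Among the 8, scaling alone separated Elane, with 1 read in Trim28 KO 1 and 1 read in WT 1. Ctsg had only 1 read in WT 1. Among the 6683 genes of similar summed count, 33.5% had lower, non-overlapping values in Trim28 KO, as did 24.8% of all genes with a read.

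The calls depended on WT 2. Without that library edgeR tested 6 of the genes and called 0 (8.17% of all tested genes were then lower and 7.48% higher), and 2 of the 6 had an unadjusted p under 0.05. Mpo then had a log2 fold change of -1.47 (adjusted p = 0.355) and Prtn3 one of -1.81 (adjusted p = 0.186), and Ltf had too few reads to be tested. DESeq2 also called 0 (3.57% of all genes lower), with an adjusted p for Lcn2 alone and 0 at an unadjusted p under 0.05. limma-voom called 0 (5.95%), with 1 at an unadjusted p under 0.05. In these fits the lone WT library is assumed to vary like the Trim28 KO libraries. With no filter on low counts, all 10 genes were tested and 7 were lower in Trim28 KO (5.25% of all genes tested were lower), and leaving out WT 2 then brought the count to 0 (2.08%), with 3 genes at an unadjusted p under 0.05. In that fit Ltf came closest (adjusted p = 0.0547), followed by S100a8 (0.186) and Prtn3 (0.240). Without WT 1, in contrast, 7 of 9 tested genes were lower (7% of all genes). Of the 9 tested genes only Ltf was called without Trim28 KO 1 (adjusted p = 0.0324, 3.27% of all genes lower) or without Trim28 KO 2 (adjusted p = 0.0282, 4.61%).

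The count over all 4 libraries moved less with the remaining choices. It was 3 with RLE factors (8.52% of all tested genes lower), upper-quartile factors (8.98%), library size alone (7.49%), factors taken without the granule and blood cell genes (8.79%) and DESeq2 (6.26%). DESeq2 called S100a8 in place of Prtn3. The count was 4 with limma-voom (7.46%) and with a block for replicate number (8.68%), and 5 with dispersions that are not robust (7.73%), which added S100a8 and S100a9. The stricter filter (9.93%) left no granule gene to test.

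**Figure D2:**
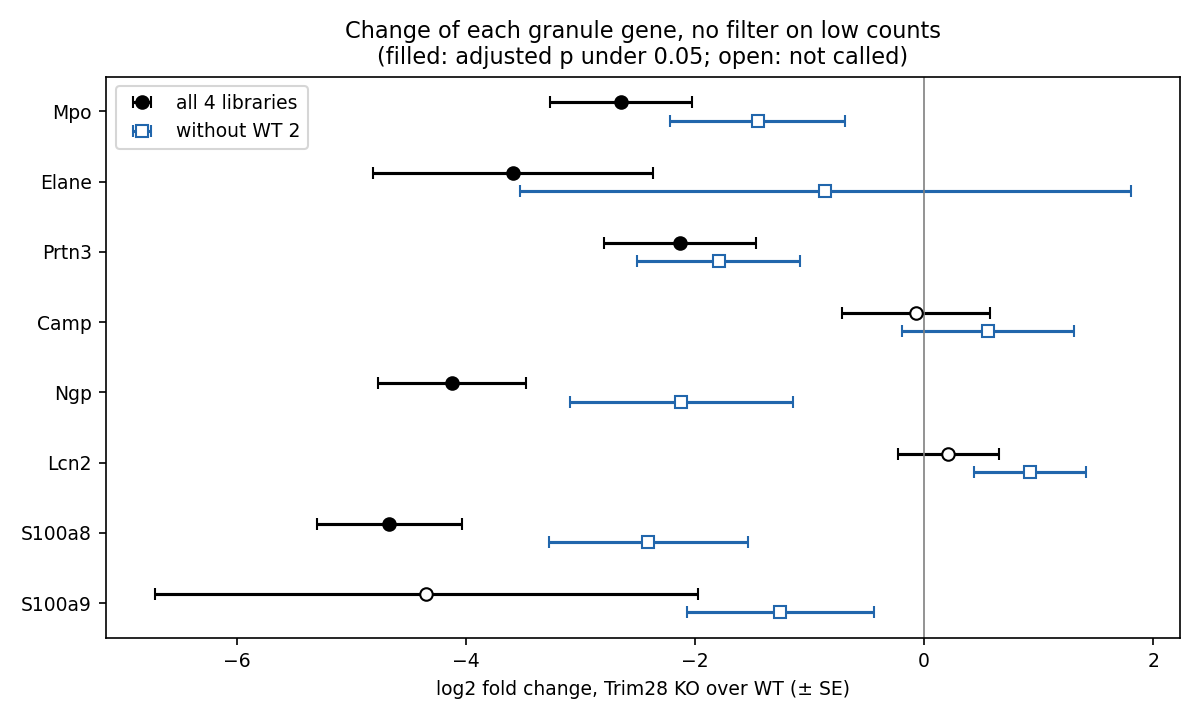
Log2 fold change of Trim28 KO over WT (x axis, bars of 1 SE) for the 8 granule genes with a read in Trim28 KO (y axis), fitted with no filter on low counts on all 4 libraries (circles) and without WT 2 (squares). Filled symbols have an adjusted p under 0.05. Without WT 2 the value of S100a8 lies at -2.41 in place of -4.67, that of Ngp at -2.12 in place of -4.12, and no symbol is filled.

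Reads pooled by class were also set against WT 1 alone. The azurophil class stood at 0.301 of WT 1 in the pooled Trim28 KO libraries (95% counting interval of 0.154 to 0.573), and calprotectin at 0.291 of WT 1 (0.139 to 0.591). The specific granule class stood at 0.887 of WT 1 (0.599 to 1.33), and Camp and Lcn2 held most of its reads in Trim28 KO. These ratios set the pooled Trim28 KO libraries against WT 1 and have no replicate check in WT. Their intervals leave out the spread between libraries, so they support no direction.

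The make-up of the granule gene reads differed between libraries. Lcn2 alone gave 45.9% and 56.5% of the reads of the 10 genes in Trim28 KO, against 15.4% and 5.97% in WT, and the 95% exact binomial intervals of each Trim28 KO library (from 33.1% upwards) lay above those of both WT libraries (up to 24.5%). Calprotectin gave 16.4% and 8.70% in Trim28 KO, against 25.3% and 54.2% in WT. The azurophil genes gave 14.8% and 17.4% in Trim28 KO, against 29.7% and 16.1% in WT, with intervals that overlap for every pair of libraries except WT 1 and WT 2. The calprotectin interval of WT 2 (lower bound of 49.99%) lay above that of WT 1 (16.7% to 35.5%). Shares sum to the whole, so the lower azurophil share of WT 2 is not a separate difference, and azurophil reads numbered 89 in WT 2 and 27 in WT 1. The higher Lcn2 share in Trim28 KO is not a separate difference either. Lcn2 had 28 and 26 reads in Trim28 KO, against 14 and 33 reads in WT.

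**Figure D3:**
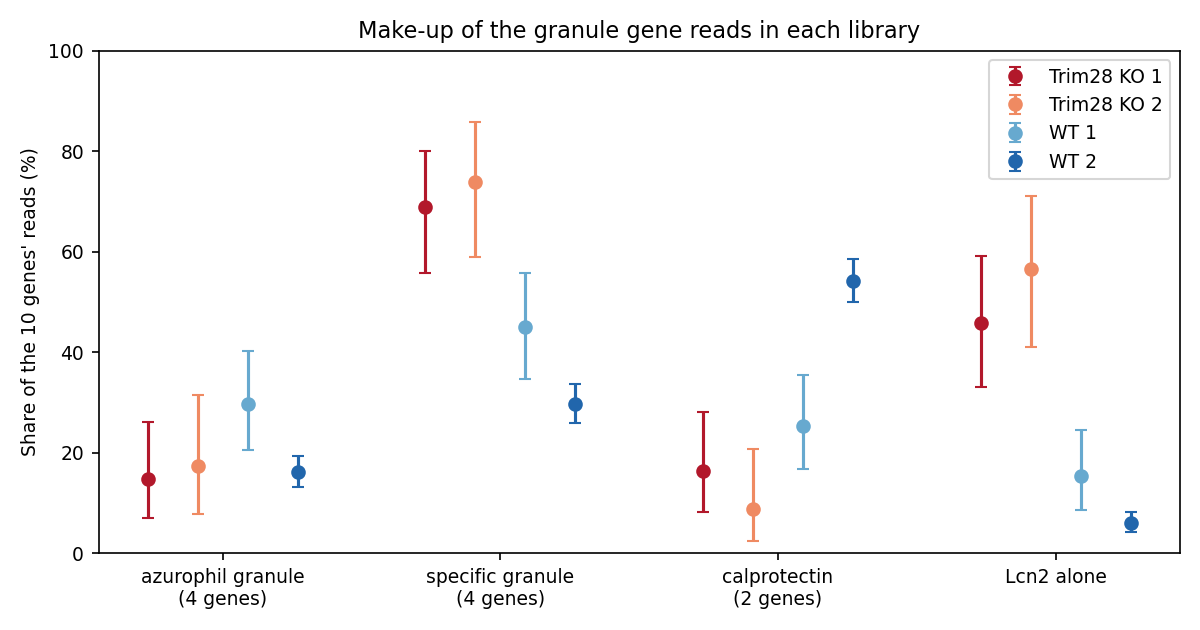
Share of the reads of the 10 granule genes (y axis, percent) held by each class and by Lcn2 alone (x axis) in each library, with 95% exact binomial intervals that cover counting error only. Lcn2 holds 45.9% and 56.5% in the Trim28 KO libraries, against 15.4% and 5.97% in WT 1 and WT 2, while calprotectin holds 54.2% in WT 2.

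Levels of different genes were compared as CPM per kilobase of exon. In Trim28 KO the order of the mean levels began with Camp (0.605), Lcn2 (0.524) and S100a9 (0.491), whose libraries overlapped, followed by S100a8 (0.147), whose libraries lay below those of S100a9, and Prtn3 (0.118), and by Ngp, Mpo and Elane below 0.1. S100a8 and S100a9 each had 2 reads in Trim28 KO 2, so only gene length ordered them in that library. In WT the order began with S100a9 (10.3), S100a8 (4.02) and Ngp (1.56), followed by the other 7 genes between 0.319 and 0.643. Every neighbouring pair in the WT order overlapped across WT 1 and WT 2. Within each WT library, however, S100a9 lay above S100a8, and both lay above all other members. In WT 1 the pair had 12 and 11 reads, so their order there rests largely on gene length. The next gene was Prtn3 in WT 1 (0.429) and Ngp in WT 2 (2.73), so the order below the calprotectin genes is not resolved. The order in WT 1 alone was flatter, with 1.22 for S100a9 and 0.842 for S100a8 at the top, while WT 2 held 19.4 and 7.20 for the same genes.

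Of 72 other listed genes of neutrophils, their transcription factors and their signals, 71 had a read, 40 were tested, and 5 were higher and 5 lower in Trim28 KO, with a median log2 fold change of -0.08. Many of these genes are also used by other cells of the tissue. In the azurophil and promyelocyte list, 0 of 5 tested genes were called by edgeR, DESeq2 or limma-voom, and each gave 1 gene at an unadjusted p under 0.05. The smallest edgeR p-values belonged to Cd63, a granule membrane tetraspanin gene that many cells use (log2 fold change of 0.43 ± 0.21, adjusted p = 0.164), Serpinb1a (0.67 ± 0.34) and Ctsc (0.26 ± 0.21). In the specific and gelatinase granule list, 4 of 10 tested genes were higher and 6 were not called (DESeq2 and limma-voom each had 3 higher, without Cybb). These were Hp, which encodes the haemoglobin-binding haptoglobin (1.19 ± 0.21, adjusted p = 2.47e-04), the protease inhibitor gene Slpi (1.06 ± 0.28), Tcn2 (0.69 ± 0.19) and Cybb (1.04 ± 0.36), the last named after its value was seen. Mmp8, the neutrophil collagenase gene, was not tested and had 2 and 2 reads in Trim28 KO, against 5 and 27 reads in WT.

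The mature neutrophil list had 0 called genes of 7 tested by edgeR, DESeq2 or limma-voom. At an unadjusted p under 0.05 edgeR and limma-voom each gave 1 and DESeq2 gave 0. In edgeR it was Il1b (1.15 ± 0.52, adjusted p = 0.144), which macrophages also make. Csf3r, the receptor for the neutrophil growth factor G-CSF, had 30 and 24 reads in Trim28 KO, against 10 and 39 reads in WT (0.13 ± 0.51, adjusted p = 0.897). Ly6g, which marks mouse neutrophils, had reads only in WT 2, and there only 3. Retnlg, named after its values were seen, had 0 reads in both Trim28 KO libraries, against 2 and 49 reads in WT. WT 2 was the highest library for 15 of the 21 genes with a read in this list, for 7 of 16 in the specific and gelatinase granule list and for 5 of 12 in the azurophil list, beside 28.8% of all genes with a read.

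Of the transcription factors, Klf5 (-1.02 ± 0.22, adjusted p = 0.00185) and Gfi1, a repressor needed for neutrophil development (adjusted p = 0.0334), were lower by edgeR, and the other 8 of 10 tested were not called. Of the 10, DESeq2 called 2 lower and limma-voom 3. DESeq2 did not call Gfi1 (adjusted p = 0.154). The calls of both tools thus include a factor other than Klf5 and Gfi1. Gfi1 stood at 0.360 and 0.803 CPM in Trim28 KO, against 1.86 and 1.46 CPM in WT, so for this gene WT 2 was not the highest library. Cebpd, of the C/EBP family, was not called by edgeR (0.65 ± 0.24, adjusted p = 0.0642). Cebpb, of the same family and named after its value was seen, was not called by edgeR either (-0.92 ± 0.32, adjusted p = 0.0894). Cebpe, the C/EBP factor needed for specific granules, had 0 reads and 1 read in Trim28 KO, against 0 and 3 reads in WT, and was not tested. Of the signals, 3 of 8 tested genes were lower by edgeR and by limma-voom, and 2 by DESeq2, which did not call Cxcl1 (adjusted p = 0.107). They were Cxcl12, the chemokine that retains neutrophils in marrow (-1.03 ± 0.19, adjusted p = 4.06e-04), the adhesion molecule gene Vcam1 (-1.19 ± 0.22) and Cxcl1, a neutrophil attractant (44 and 38 reads in Trim28 KO, against 79 and 82 reads in WT). Icam1 was the only one of the 8 that was higher (0.58 ± 0.19, adjusted p = 0.0389), and it was named after its value was seen. DESeq2 and limma-voom did not call it.

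Markers of other blood cells moved in both directions in the same libraries. Of 7 tested erythroid genes 6 were lower in Trim28 KO, and the list summed to 76.2 and 82.6 CPM in Trim28 KO, against 255 and 350 CPM in WT, with WT 2 at 1.37 times WT 1. WT 2 was the highest library for 10 of 11 erythroid genes with a read. Hbb-bs had 31.6 and 34.9 CPM in Trim28 KO, against 97.9 and 136 CPM in WT. Of 13 tested macrophage genes 8 were higher and 1 was lower, with Adgre1 (the F4/80 gene) at 21.0 and 14.1 CPM in Trim28 KO, against 6.11 and 7.02 CPM in WT. The macrophage list summed to 514 and 354 CPM in Trim28 KO, against 309 and 256 CPM in WT. Of 8 tested genes shared by leukocytes 4 were higher by edgeR (Laptm5, Coro1a, Cd53 and Fcer1g, named after their values were seen), and 3 by DESeq2 and by limma-voom, which did not call Cd53. The leukocyte list summed to 163 and 103 CPM in Trim28 KO, against 91.7 and 92.6 CPM in WT. Ptprc, in the same list, was not called (5.05 and 4.27 CPM in Trim28 KO, against 3.45 and 3.28 CPM in WT, adjusted p = 0.303). All 8 tested osteoclast genes were lower, and that list summed to 242 and 249 CPM in Trim28 KO, against 1074 and 921 CPM in WT. The part of these other cells in the granule gene values was not tested. The ratio of WT 2 to WT 1 was 0.828 for the macrophage list, 0.857 for the osteoclast list and 1.01 for the leukocyte list. It was 1.47 for the mast cell and basophil list (95% counting interval of 1.22 to 1.78), 1.53 for the mature neutrophil list (1.37 to 1.71) and 2.34 for the lymphocyte list (1.598 to 3.49). For the 10 granule genes it was 5.78 (4.62 to 7.30). Calprotectin, with 300 of their 553 reads in WT 2, had a ratio of 12.4 (8.11 to 19.9). The azurophil class had one of 3.14 (2.02 to 5.02) and the specific granule class one of 3.80 (2.69 to 5.50). The intervals of these 2 classes overlap that of the lymphocyte list. The value of the mature neutrophil list rests largely on Mxd1, with 437 of its 518 reads in WT 1 and 428 of 831 in WT 2. Mxd1 itself had a ratio of 0.932, whereas WT 2 was the highest library for 15 of the 21 genes of that list. The mature neutrophil ratio thus does not set the granule genes apart from that list.

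**Figure D4:**
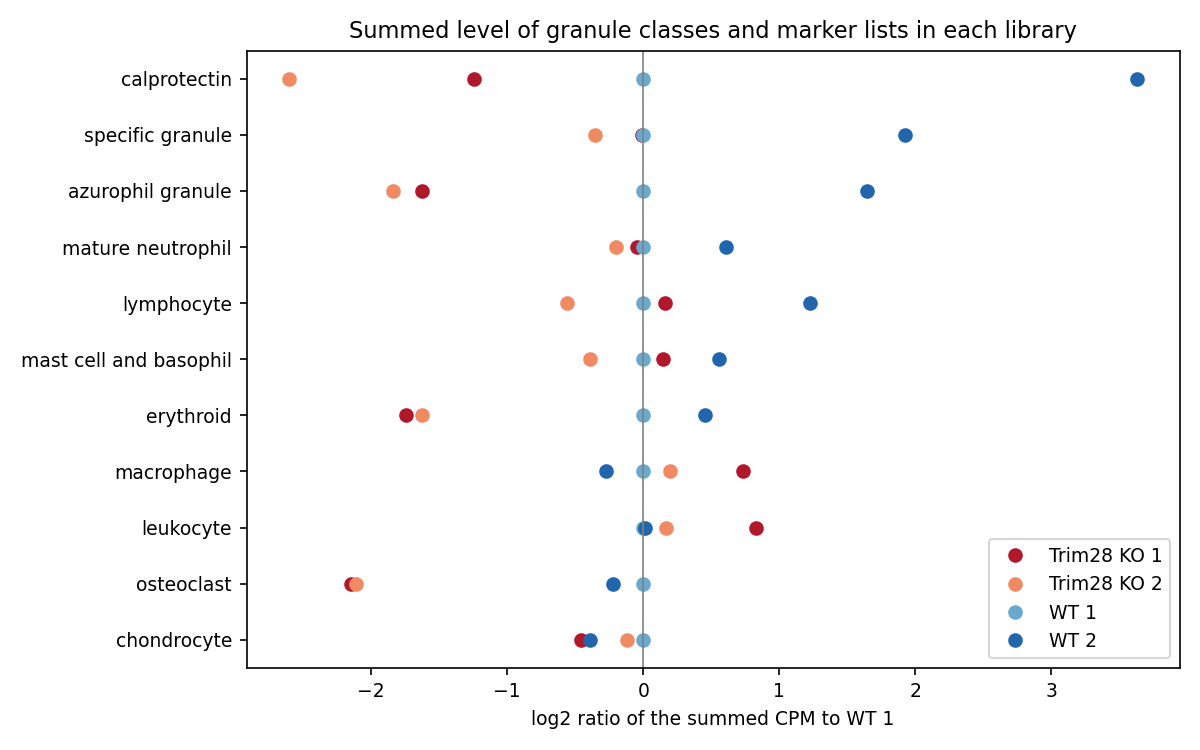
Log2 ratio of the summed CPM in each library (points) to that in WT 1 (x axis, WT 1 at 0) for granule classes and marker lists (y axis), with no error bars. WT 2 is highest for calprotectin, both granule classes, and the mature neutrophil, lymphocyte, mast cell and basophil, and erythroid lists. Both Trim28 KO libraries lie left of both WT libraries for calprotectin, both granule classes, and the mature neutrophil, erythroid and osteoclast lists. The gap between Trim28 KO 1 and WT 1 is slight for the specific granule class and the mature neutrophil list.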

How the data were processed

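Trizol was used to extract total RNA, and library preparation was Illumina's standard one, per the labels. The authors deposited a table of unnormalised counts. As its header records, featureCounts 1.6.4 assigned paired-end fragments to exons of GENCODE M23 (mm10), grouped by gene name. No strand, multi-mapping or multi-overlap option was set, per the file headers. Subread 1.6.4 and edgeR are named in the submitters' processing notes, and no aligner is given in the sources used here. The table's gene length, deposited by the authors in another column, gave CPM per kilobase.

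Genotypes were tested, Trim28 KO over WT, with the quasi-likelihood test of edgeR 4.0.16 under R 4.3.3 (limma 3.58.1 for limma-voom), with TMM factors, robust dispersions and no covariate. filterByExpr with its defaults kept 16639 genes, in effect those with about 10 reads in 2 libraries. Genes with an adjusted p (Benjamini-Hochberg, all tested genes) under 0.05 were called, and "rose", "fell", "higher" and "lower" are used of called genes in tests and of plain values elsewhere. SE is the log2 fold change over the square root of F. Ratios of pooled reads carry exact conditional binomial 95% intervals. Floors use 3 reads in Trim28 KO and take the WT reads as exact. Steps were checked on simulated counts. The members, lists and tests were chosen with earlier results of these data known. Named genes were the members, Trim28, up to 3 tested genes by p-value in each other list and 9 cell markers. Genes outside this rule are marked, apart from those that share exonic bases with members. The text leaves out list genes that bear on no member. GENCODE M21 gave positions on GRCm38, of which mm10 is another name. The alternatives were other scalings and filters, DESeq2 1.42.0, limma-voom, non-robust dispersions, a replicate block and leaving out each library; those that join 2 choices were added after seeing the data. Chi-square per degree of freedom between replicates was 24.6 in Trim28 KO and 30.6 in WT, above sampling noise. The result of 1 gene is not reported here.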

Additional observations from a re-analysis of the deposited data

How the results depend on the processing

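The count of granule genes lower in Trim28 KO was 3 of 7 with DESeq2 and with each other scaling, and 4 with limma-voom. It was 7 with no filter on low counts and 5 with dispersions that are not robust, and from 0 to 7 when 1 library was left out, which includes each join of 2 choices without WT 2. The stricter filter of 5 CPM left no granule gene to test. 0 granule genes were higher under every alternative run. With the replicate block 4 were lower (Ltf, Mpo, Prtn3 and S100a8). Same-numbered libraries did not deviate together (correlation of -0.0950 over genes). With 2 libraries in each genotype this check cannot exclude that the numbers pair them.

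Camp had a log2 fold change of -0.49 to 0.54 with 1 library left out (lowest without WT 1, highest without WT 2), 0.56 without WT 2 and with no filter, 0.47 by limma-voom without WT 2 and 0.21 without Trim28 KO 2, and Lcn2 one of -0.26 without WT 1 to 0.91 without WT 2. None was called. Other neutrophil genes lower in Trim28 KO numbered 14 with no filter, 3 with the stricter filter and 2 to 10 with 1 library left out, beside 5 as reported. Those higher numbered 3 with DESeq2, limma-voom or dispersions that are not robust, and 1 to 5 with 1 library left out, beside 5. Over all genes, leaving out 1 library gave 572 to 1406 lower and 702 to 1442 higher, beside 1460 and 1438. The cause of these shifts was not tested. Depth limits every granule gene: Ngp was not tested because its 9 reads in WT 1 were too few for the filter.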

Other observations

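Vpreb1, part of the surrogate light chain of B-lymphocyte precursors and picked with its values in view, was also rare and also highest in WT 2. It had 2 reads and 1 read in Trim28 KO, against 7 and 17 reads in WT. The lymphocyte list summed to 2.32 and 1.41 CPM in Trim28 KO, against 2.07 and 4.85 CPM in WT, and 0 of its 2 tested genes were called by edgeR, DESeq2 or limma-voom, each with 0 at an unadjusted p under 0.05. Mast cell and basophil genes summed to 10.97 and 7.58 CPM in Trim28 KO, against 9.93 and 14.6 CPM in WT, and 0 of 6 tested were called by edgeR, DESeq2 or limma-voom. At an unadjusted p under 0.05 edgeR and limma-voom each gave 1 higher and 1 lower, and DESeq2 0. Cpa3, the mast cell carboxypeptidase gene, had 22 and 12 reads in Trim28 KO, against 12 and 26 reads in WT. Eosinophil genes were nearly absent: Epx, the eosinophil peroxidase gene, had 0 and 5 reads in Trim28 KO, against 0 and 3 reads in WT, and none of the list was tested. Monocyte genes summed to 143 and 137 CPM in Trim28 KO, against 145 and 162 CPM in WT, and 2 of 8 were higher by edgeR (Hp and Ms4a6c), of which DESeq2 and limma-voom called Hp alone. Of 2 tested megakaryocyte genes 1 was higher, Pf4, with 17.7 and 9.33 CPM in Trim28 KO, against 4.83 and 6.16 CPM in WT.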
